A study of Arabidopsis thaliana with 18 samples.

Results

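The 10 genes described here bring sulfate into Arabidopsis cells, reduce it, or mark a plant that is short of sulfur. They were picked by name from the 32832 genes of the count table, with earlier results of these data known. SULTR1;1 (AT4G08620) and SULTR1;2 (AT1G78000) encode the high-affinity sulfate transporters of the root surface, and SULTR4;2 (AT3G12520) encodes a transporter that releases sulfate from the vacuole. ATPS1 (AT3G22890) encodes an ATP sulfurylase, and APR1 (AT4G04610), APR2 (AT1G62180) and APR3 (AT4G21990) encode adenylyl sulfate (APS) reductases. SDI1 (AT5G48850), LSU1 (AT3G49580) and LSU2 (AT5G24660) are used as transcript markers of sulfur deficiency.

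Plants take up sulfate through SULTR transporters, activate it to APS with ATP sulfurylase, and reduce APS to sulfite with APS reductase, a step at which much of the control of the pathway lies. The product, sulfide, is fixed into cysteine, while APS kinase diverts part of the APS to the sulfate donor used for glucosinolates and other sulfated compounds. When sulfate runs short, transcripts for uptake and reduction and for the SDI and LSU proteins are known to rise, and sugar feeding is known to raise APS reductase transcripts in Arabidopsis roots.

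RNA came from whole 5-day-old seedlings, and 3′ ends of transcripts were sequenced (QuantSeq). The atm1-1 seedlings carried a T-DNA insertion in ATM1, a class VIII myosin gene, in the Col-0 background, and were grown on agar medium with 15 mM sucrose, with 15 mM glucose, or without sugar (mock). Col-0 seedlings were grown on the same 3 media, and all 6 groups received the same mineral salts, with no sulfate treatment in the design. Each group had 3 libraries, stated to be biological replicates. In whole seedlings, fewer cells of a type and less RNA per cell cannot be told apart.

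The libraries held 9450790 to 20256309 counts. The atm1-1 glucose replicates 1 and 2 stood apart from their group, with an SD of 0.727 and 0.885 (log2) from the mean of the other libraries of the group across genes, against 0.393 to 0.582 for the other 16 libraries. Levels are given as CPM, counts per 1000000 counts of a library after TMM scaling. ATM1 itself did not separate the genotypes, with 26.9 to 43.8 CPM in atm1-1 libraries and 26.2 to 43.9 CPM in Col-0 libraries (log2 fold change -0.08 ± 0.11 SE, edgeR adjusted p = 0.86). A T-DNA insertion need not remove the 3′ end that QuantSeq counts, so ATM1 could not check the genotype labels, and the genotypes below are those of the labels.

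The 250 bases upstream of the annotated start are shown for SULTR1;2, APR1, SDI1 and LSU1, 1 transporter, 1 reductase and 2 deficiency markers that were higher with sucrose. They are from RefSeq's TAIR10.1 assembly, on the gene's own strand, at chr1:29327265-29327514 (plus strand), chr4:2324628-2324877 (plus strand), chr5:19807854-19808103 (minus strand) and chr3:18375941-18376190 (minus strand). Capitals mark GAGAC or its reverse complement GTCTC, the core of the sulfur-responsive element first described in the SULTR1;1 promoter.
SULTR1;2: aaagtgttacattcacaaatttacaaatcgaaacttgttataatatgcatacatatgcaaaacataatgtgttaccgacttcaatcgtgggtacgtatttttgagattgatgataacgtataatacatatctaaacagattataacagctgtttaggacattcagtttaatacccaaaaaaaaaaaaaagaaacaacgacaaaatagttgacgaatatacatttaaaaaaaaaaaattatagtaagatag
APR1: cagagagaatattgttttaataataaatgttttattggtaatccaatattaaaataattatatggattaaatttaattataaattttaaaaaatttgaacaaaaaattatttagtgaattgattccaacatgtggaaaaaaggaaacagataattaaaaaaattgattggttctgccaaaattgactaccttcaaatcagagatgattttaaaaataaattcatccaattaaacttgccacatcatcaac
SDI1: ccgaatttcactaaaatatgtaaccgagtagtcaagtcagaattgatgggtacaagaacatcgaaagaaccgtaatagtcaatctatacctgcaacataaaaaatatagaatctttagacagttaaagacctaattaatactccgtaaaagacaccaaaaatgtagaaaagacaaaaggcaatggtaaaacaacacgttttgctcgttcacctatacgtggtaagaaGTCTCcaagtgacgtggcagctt
LSU1: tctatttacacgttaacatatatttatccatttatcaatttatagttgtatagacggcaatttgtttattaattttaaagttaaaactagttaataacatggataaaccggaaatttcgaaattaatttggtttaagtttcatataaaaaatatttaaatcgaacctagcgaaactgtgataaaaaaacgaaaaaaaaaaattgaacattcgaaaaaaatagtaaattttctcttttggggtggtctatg
The core was found on either strand in 1 of the 10 upstream windows, that of SDI1, where it lay 23 bases before the start. Of the 27443 windows of the same length before protein-coding genes, 25.8% held it. The G-box CACGTG, a palindrome bound by light-signalling factors, was in 0 of the 10 windows and in 6.49% of all windows. These matches describe letters in a short window of 250 bases. Sequence further upstream was not searched, so a promoter may hold the core outside the window, and no binding was measured.

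The atm1-1 seedlings grown with sucrose had higher levels of a sulfate transporter, an APS reductase and deficiency markers than atm1-1 mock seedlings. Fewer of the genes were called with glucose or in Col-0. The edgeR quasi-likelihood test was run on 19679 genes, which included 9 of the 10, and genes were called at a Benjamini-Hochberg adjusted p of at most 0.1. With sucrose, 5 of the 9 tested genes were called higher than in mock in atm1-1 (SULTR1;2, APR1, SDI1, LSU1 and LSU2), where 2.85% of all tested genes were called higher. In Col-0, 2 of the 9 were called higher with sucrose (SULTR1;2 and APR1), where 1.24% of all tested genes were. With glucose, 3 of the 9 were called higher in atm1-1 (SULTR1;2, APR1 and LSU1; 2.2% of all tested genes) and 0 in Col-0 (0.442% of all tested genes). None of the 9 was called lower with either sugar in either genotype. The genes were chosen with earlier results of these data known. The shares of all tested genes, here and below, are therefore a description and not independent support. The median log2 fold change of the 9 was 0.96 for sucrose and 0.65 for glucose in atm1-1, and 0.37 for sucrose and 0.52 for glucose in Col-0, where the median of all tested genes lay between -0.01 and 0.01.

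**Figure D1:**
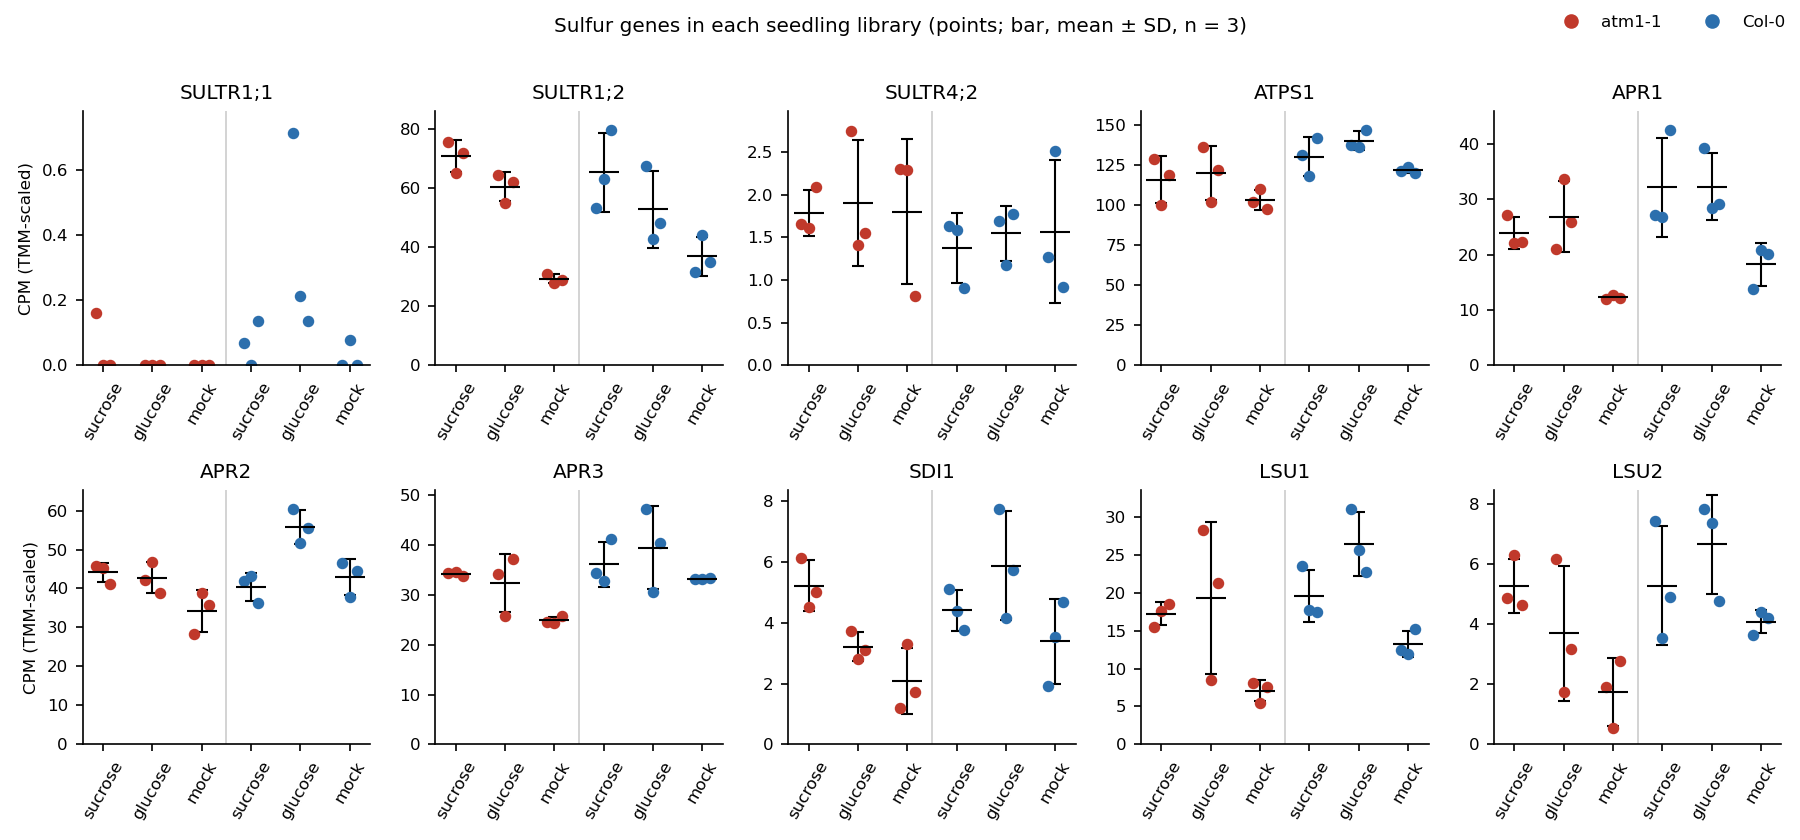
TMM-scaled CPM (y axis) of the 10 genes in each of the 18 libraries, with atm1-1 in red and Col-0 in blue and the 3 media along the x axis. Points are libraries and bars the mean ± SD (n = 3), left out for SULTR1;1, which had at most 8 counts in a library. For SULTR1;2 in atm1-1, all sugar libraries (54.9 to 75.5 CPM) sat above all mock libraries (28.0 to 31.0 CPM).

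SULTR1;2, the main sulfate transporter of the root under sufficient sulfate, was called with both sugars in atm1-1 and with sucrose in Col-0. It had 75.5, 64.9 and 71.7 CPM in atm1-1 sucrose libraries and 64.5, 54.9 and 61.9 CPM in atm1-1 glucose libraries, against 31.0, 28.0 and 28.9 CPM in atm1-1 mock libraries. Both sugar groups lay wholly above mock. The log2 fold change was 1.27 ± 0.18 (SE) for sucrose, with an edgeR adjusted p of 0.000106, and 1.04 ± 0.18 for glucose, with an adjusted p of 0.00105. In Col-0 it had 53.3, 62.9 and 79.6 CPM with sucrose and 67.3, 42.7 and 48.2 CPM with glucose, against 31.5, 44.2 and 35.0 CPM in mock. The Col-0 sucrose libraries lay above mock and the glucose libraries overlapped it. For Col-0 the log2 fold change was 0.82 ± 0.18 for sucrose (edgeR adjusted p = 0.0175) and 0.52 ± 0.18 for glucose (adjusted p = 0.432). The Col-0 sucrose call of SULTR1;2 was lost without Col-0 mock replicate 1 (adjusted p = 0.171), mock replicate 3 (0.113) or sucrose replicate 3 (0.149).

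The other transporters did not pass the test or could not be tested. SULTR4;2, the vacuolar transporter, had 0.817 to 2.75 CPM over the 18 libraries, and its 95% interval for sucrose in atm1-1 ran from -1.02 to 0.95 on the log2 scale. True changes within that range are compatible with these counts. SULTR1;1, the inducible root transporter, had only 20 counts in all and was below the filter on low counts. It had 3 counts in atm1-1 sucrose libraries, 0 in atm1-1 glucose and 0 in atm1-1 mock, against 4 counts in Col-0 sucrose, 12 in Col-0 glucose and 1 in Col-0 mock. A count of 0 allows up to 3 counts in a library, or 0.173 to 0.264 CPM in the atm1-1 mock and glucose libraries. The ratio of Col-0 glucose to Col-0 mock was 13.0, with a 95% counting interval of 1.92 to 555 that covers counting error only, and 8 of its 12 counts came from glucose replicate 1.

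Of the reduction genes, APR1 responded to sugar beyond the spread between replicates, and the others much less. APR1 had 27.1, 22.1 and 22.2 CPM in atm1-1 sucrose libraries and 21.0, 33.6 and 25.9 CPM in atm1-1 glucose libraries, against 12.0, 12.7 and 12.1 CPM in atm1-1 mock libraries. In Col-0 it had 27.1, 26.8 and 42.4 CPM with sucrose and 39.1, 28.5 and 29.1 CPM with glucose, against 13.8, 20.8 and 20.1 CPM in mock. In both genotypes every sugar library of APR1 lay above every mock library. In atm1-1 the log2 fold change was 0.96 ± 0.21 (SE) for sucrose (edgeR adjusted p = 0.0108) and 1.13 ± 0.21 for glucose (adjusted p = 0.00352). In Col-0 it was 0.82 ± 0.21 for sucrose (edgeR adjusted p = 0.0515) and 0.82 ± 0.21 for glucose, where the adjusted p of 0.107 just missed the threshold. DESeq2 called the Col-0 glucose change of APR1 (adjusted p = 0.0435). The Col-0 sucrose call of APR1 was lost without Col-0 mock replicate 1 (0.376), mock replicate 3 (0.136) or sucrose replicate 3 (0.406, all edgeR adjusted p).

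APR2, which carries most APS reductase activity in Arabidopsis, had 41.2 to 45.9 CPM in atm1-1 sucrose libraries and 39.0 to 46.9 CPM in atm1-1 glucose libraries, against 28.2 to 38.9 CPM in atm1-1 mock. In Col-0 it had 36.2 to 43.1 CPM with sucrose and 51.6 to 60.4 CPM with glucose, against 37.7 to 46.7 CPM in mock. The glucose libraries of APR2 thus lay above mock in both genotypes, and the Col-0 sucrose libraries did not. Its log2 fold change for glucose, averaged over the genotypes, was 0.35 ± 0.11 (SE, edgeR adjusted p = 0.079), the only call of APR2. That call held under 9 of the 21 alternatives run, and was lost without any 1 of 8 of the 12 libraries, with the highest adjusted p (0.206) without atm1-1 mock replicate 1.

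APR3 had 33.8 to 34.5 CPM in atm1-1 sucrose libraries, against 24.3 to 25.7 CPM in atm1-1 mock, with no overlap (log2 fold change 0.46 ± 0.17, edgeR adjusted p = 0.15). In Col-0, APR3 had 32.9 to 41.3 CPM with sucrose, against 33.2 to 33.3 CPM in mock, which overlapped (log2 fold change 0.12 ± 0.17, adjusted p = 0.802). With glucose, APR3 had 25.9 to 37.1 CPM in atm1-1, barely above mock at its lowest (0.38 ± 0.17, edgeR adjusted p = 0.299). In Col-0 glucose it had 30.6 to 47.2 CPM, which overlapped mock (0.25 ± 0.17, adjusted p = 0.944). ATPS1 had 99.9 to 129 CPM in atm1-1 sucrose libraries, against 97.8 to 110 CPM in atm1-1 mock, which overlapped (log2 fold change 0.17 ± 0.14). In Col-0 ATPS1 had 118 to 142 CPM with sucrose, against 120 to 124 CPM in mock (log2 fold change 0.10 ± 0.14). With glucose, ATPS1 had 136 to 147 CPM in Col-0, wholly above mock (0.20 ± 0.14, edgeR adjusted p = 0.949). In atm1-1 glucose it had 102 to 136 CPM, which overlapped mock (0.22 ± 0.14, adjusted p = 0.515). ATPS1 and SULTR4;2 were called in none of the 13 comparisons, and APR3 was called in none either.

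The deficiency markers were called higher with sucrose than in mock in atm1-1, and none was called with sucrose in Col-0. LSU1, a small coiled-coil protein of a family that accumulates under sulfur starvation, had 15.5, 17.6 and 18.5 CPM in atm1-1 sucrose libraries and 28.2, 8.44 and 21.3 CPM in atm1-1 glucose libraries, against 8.13, 5.51 and 7.60 CPM in atm1-1 mock libraries. Both sugar groups lay above mock, though the glucose replicate 2 lay barely above it. The log2 fold change of LSU1 was 1.27 ± 0.28 (SE) for sucrose (edgeR adjusted p = 0.00991) and 1.44 ± 0.28 for glucose (adjusted p = 0.0041). The glucose call was lost when only the groups compared were fitted (edgeR adjusted p = 0.146). Without both glucose libraries that stood apart, which left only replicate 3 of that group, the log2 fold change was 1.58. In Col-0, LSU1 had 23.5, 17.7 and 17.4 CPM with sucrose and 31.0, 25.7 and 22.7 CPM with glucose, against 12.5, 11.9 and 15.2 CPM in mock. The Col-0 groups did not overlap, but the log2 fold changes of 0.56 ± 0.27 for sucrose and 1.00 ± 0.27 for glucose had edgeR adjusted p of 0.369 and 0.146. DESeq2 called the Col-0 glucose change of LSU1 (adjusted p = 0.0643).

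LSU2, the close homologue of LSU1, had 4.86, 6.31 and 4.64 CPM in atm1-1 sucrose libraries, against 1.90, 0.551 and 2.78 CPM in atm1-1 mock libraries. The sucrose libraries lay wholly above mock (log2 fold change 1.59 ± 0.43 SE, edgeR adjusted p = 0.0403). In Col-0, LSU2 had 7.43, 3.52 and 4.90 CPM with sucrose, against 3.65, 4.39 and 4.20 CPM in mock, and the groups overlapped (log2 fold change 0.37 ± 0.40). The atm1-1 sucrose call of LSU2 was lost without mock replicate 1 (edgeR adjusted p = 0.104) or 2 (0.188), or sucrose replicate 1 (0.103) or 2 (0.125).

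SDI1, which represses glucosinolate synthesis when sulfur is short, had 6.14, 4.51 and 5.00 CPM in atm1-1 sucrose libraries, against 1.21, 3.31 and 1.72 CPM in atm1-1 mock libraries. These groups did not overlap (log2 fold change 1.35 ± 0.36 SE, edgeR adjusted p = 0.0399). In Col-0, SDI1 had 5.11, 4.39 and 3.76 CPM with sucrose, against 1.93, 3.53 and 4.70 CPM in mock, and the groups overlapped (log2 fold change 0.38 ± 0.35). With glucose, SDI1 had 7.74, 4.17 and 5.74 CPM in Col-0, which overlapped mock (0.80 ± 0.35, edgeR adjusted p = 0.728). In atm1-1 glucose it had 3.75, 2.81 and 3.10 CPM, which also overlapped mock (0.65 ± 0.37, adjusted p = 0.458). The atm1-1 sucrose call of SDI1 was lost without mock replicate 1 (edgeR adjusted p = 0.192), mock replicate 3 (0.164) or sucrose replicate 1 (0.191). SDI1 had 21 to 115 counts and LSU2 7 to 109 counts in a library.

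**Figure D2:**
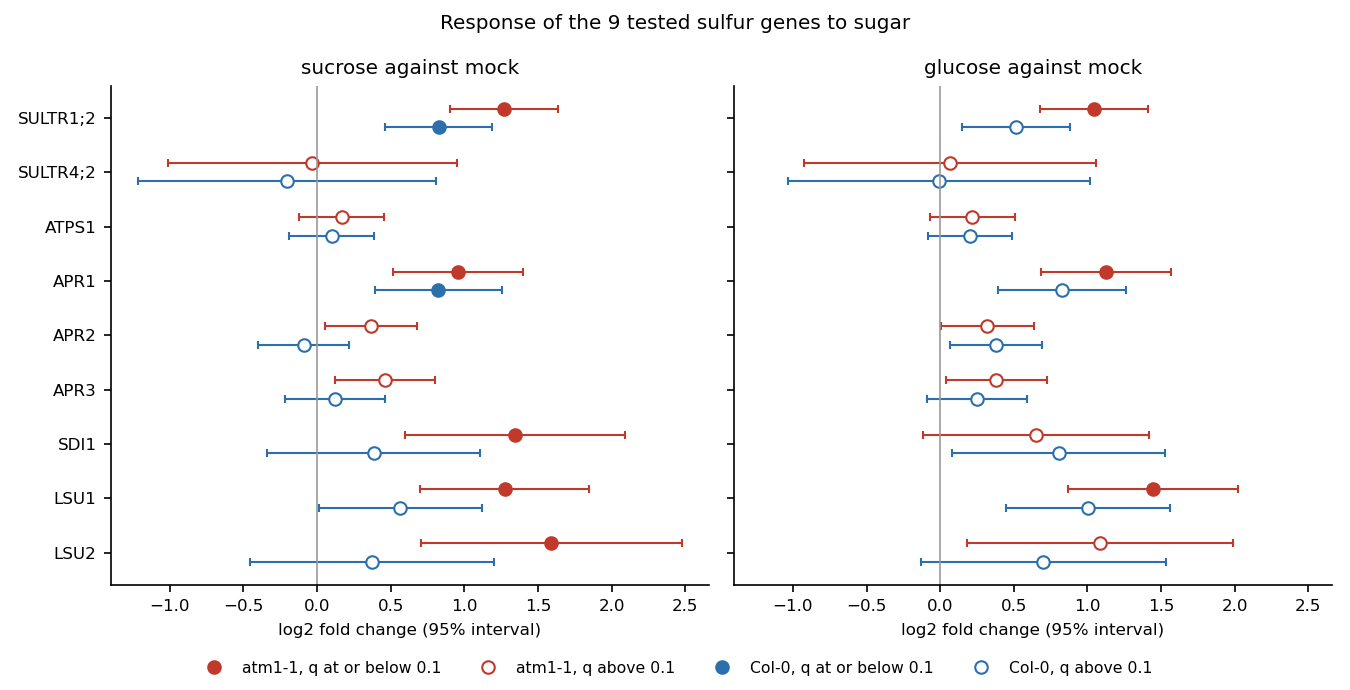
Log2 fold change against mock (x axis) of the 9 tested genes (y axis), with sucrose in the left panel and glucose in the right. Points are edgeR estimates in atm1-1 (red) and Col-0 (blue), bars the 95% interval, and filled points have an adjusted p of at most 0.1. In atm1-1, 5 points are filled for sucrose and 3 for glucose, and in Col-0 2 are filled for sucrose and 0 for glucose.

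All 3 sugar libraries lay above all 3 mock libraries for 7 of the 9 genes with sucrose in atm1-1 (11.4% of all tested genes) and for 5 with glucose in atm1-1 (7.2%). In Col-0 this held for 3 of the 9 with sucrose (10.3%) and for 5 with glucose (6.78%). At an unadjusted p under 0.05, edgeR passed 5 of the 9 for glucose in Col-0, where none was called, and 1194 of the 19679 tested genes. DESeq2 called 2 of the 9 there, but the share of all genes that it called is not given here. Averaged over the genotypes, 5 of the 9 were called higher with sucrose (SULTR1;2, APR1, SDI1, LSU1 and LSU2; 6.34% of all tested genes) and 4 with glucose (SULTR1;2, APR1, APR2 and LSU1; 3.23% of all tested genes). The averaged log2 fold change was 1.05 ± 0.13 for SULTR1;2 with sucrose (SE, edgeR adjusted p = 4.3e-06), and 1.22 ± 0.19 for LSU1 with glucose (adjusted p = 0.00024). Leaving out the 2 atm1-1 glucose libraries that stood apart left only replicate 3 of that group, so no call from that fit is given singly. That fit is included in the totals of alternatives for APR2 and for all called genes.

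Other transcripts moved with the same sugar groups. Of 4 seed reserve markers, 3 were tested and all 3 (CRA1, CRC and OLEO1) were called higher in each of the 4 sugar comparisons, while SESA1 was at 0 in 15 of the 18 libraries. Their summed level was 36.5 to 129 CPM in atm1-1 sucrose and 29.2 to 40.9 CPM in atm1-1 glucose, against 0.236 to 1.06 CPM in atm1-1 mock, and 81.0 to 130 CPM in Col-0 sucrose and 14.4 to 91.1 CPM in Col-0 glucose, against 0.588 to 2.04 CPM in Col-0 mock. Of 10 root markers, 8 were tested, and 3 were called higher with sucrose and 2 with glucose in atm1-1, against 1 and 0 in Col-0. Of all tested genes, 2.85% were called higher with sucrose and 2.2% with glucose in atm1-1, and 1.24% and 0.442% in Col-0. With each sugar in atm1-1, 6 of the 8 tested root markers had a positive log2 fold change and 2 a negative one. In Col-0, 8 were positive with sucrose, and 5 were positive and 3 negative with glucose. PYK10 made up most of the root marker sum, with 2385 to 4169 CPM over the 18 libraries. CASP1, the next highest, had 66.1 to 192 CPM. The summed root markers gave 3395 to 3707 CPM in atm1-1 sucrose and 3393 to 4357 CPM in atm1-1 glucose, against 2534 to 2768 CPM in atm1-1 mock. In Col-0 they gave 3130 to 3789 CPM with sucrose and 3862 to 4003 CPM with glucose, against 3132 to 3388 CPM in mock. Of 6 green shoot markers, 2 were called lower with sucrose in atm1-1 (2.39% of all tested genes) and 1 in Col-0 (0.899%). Averaged over the genotypes, 5 of these markers were called lower with sucrose (6.72%). The summed level of the 6 markers was 39599 to 52214 CPM in atm1-1 sucrose and 48546 to 71168 CPM in atm1-1 glucose, against 53431 to 65699 CPM in atm1-1 mock. In Col-0 it was 45528 to 47105 CPM with sucrose and 46804 to 53702 CPM with glucose, against 56562 to 57691 CPM in mock. The part of root, green shoot or seed reserve transcripts in the sugar responses of the 10 genes was not tested.

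The direct comparison of atm1-1 with Col-0 showed lower values of most of the genes in mock seedlings, none past the threshold. In mock, 0 of the 9 tested genes were called, against a background of 0.158% of all tested genes. There 8 of the 9 had a negative log2 fold change, and their median was -0.42, against 0.0011 for all tested genes. At an unadjusted p under 0.05, edgeR passed 5 of the 9 in mock and 1084 of the 19679 tested genes, and DESeq2 called 0 of the 9. For 6 of the 9, all 3 atm1-1 mock libraries lay below all 3 Col-0 mock libraries, as did 6.53% of all tested genes. The largest of these differences were in the LSU genes. LSU2, with 1.90, 0.551 and 2.78 CPM in atm1-1 mock against 3.65, 4.39 and 4.20 CPM in Col-0 mock, had a log2 fold change of -1.22 ± 0.44 (SE, edgeR adjusted p = 0.727). LSU1, with 8.13, 5.51 and 7.60 CPM in atm1-1 mock against 12.5, 11.9 and 15.2 CPM in Col-0 mock, had a log2 fold change of -0.89 ± 0.28 (adjusted p = 0.526). APR1, with 12.0, 12.7 and 12.1 CPM in atm1-1 mock against 13.8, 20.8 and 20.1 CPM in Col-0 mock, gave -0.57 ± 0.22 (adjusted p = 0.785). APR3 was even within each mock group, with 24.6, 24.3 and 25.7 CPM in atm1-1 and 33.2, 33.2 and 33.3 CPM in Col-0 (log2 fold change -0.42 ± 0.17, adjusted p = 0.841). LSU1 was called in mock without the filter on low counts (adjusted p = 0.0232) and when only the groups compared were fitted (0.0779).

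On sugar the genotype differences of the 9 genes did not pass the threshold either. With glucose, 0 of the 9 were called between atm1-1 and Col-0 (background 0.0508%), 2 passed an unadjusted p of 0.05, as did 1275 of the 19679 tested genes, DESeq2 called 0, and the median log2 fold change was -0.28. All 3 atm1-1 glucose libraries lay below all 3 Col-0 glucose libraries for 3 of the 9 (ATPS1, APR2 and SDI1), as for 4.89% of all tested genes. SDI1, for example, had 3.75, 2.81 and 3.10 CPM in atm1-1 glucose against 7.74, 4.17 and 5.74 CPM in Col-0 glucose (log2 fold change -0.87 ± 0.35, edgeR adjusted p = 0.737). With sucrose, 0 of the 9 were called (background 0.0457%), 1 passed an unadjusted p of 0.05, as did 910 of the 19679 tested genes, DESeq2 called 0, and the median was -0.0007. For LSU2 the sucrose values were 4.86, 6.31 and 4.64 CPM in atm1-1 and 7.43, 3.52 and 4.90 CPM in Col-0, which overlapped. Averaged over the 3 media, 0 of the 9 were called (background 0.884%), and 7 passed an unadjusted p of 0.05, as did 2090 of the 19679 tested genes. APR1 came nearest, with -0.42 ± 0.12 (SE, edgeR adjusted p = 0.131), and DESeq2 called it (adjusted p = 0.0844). It was also called without Col-0 mock replicate 1 (adjusted p = 0.0979) or atm1-1 glucose replicate 2 (0.0486). Without atm1-1 glucose replicate 1, LSU1 (0.0217) and LSU2 (0.0486) were called instead.

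**Figure D3:**
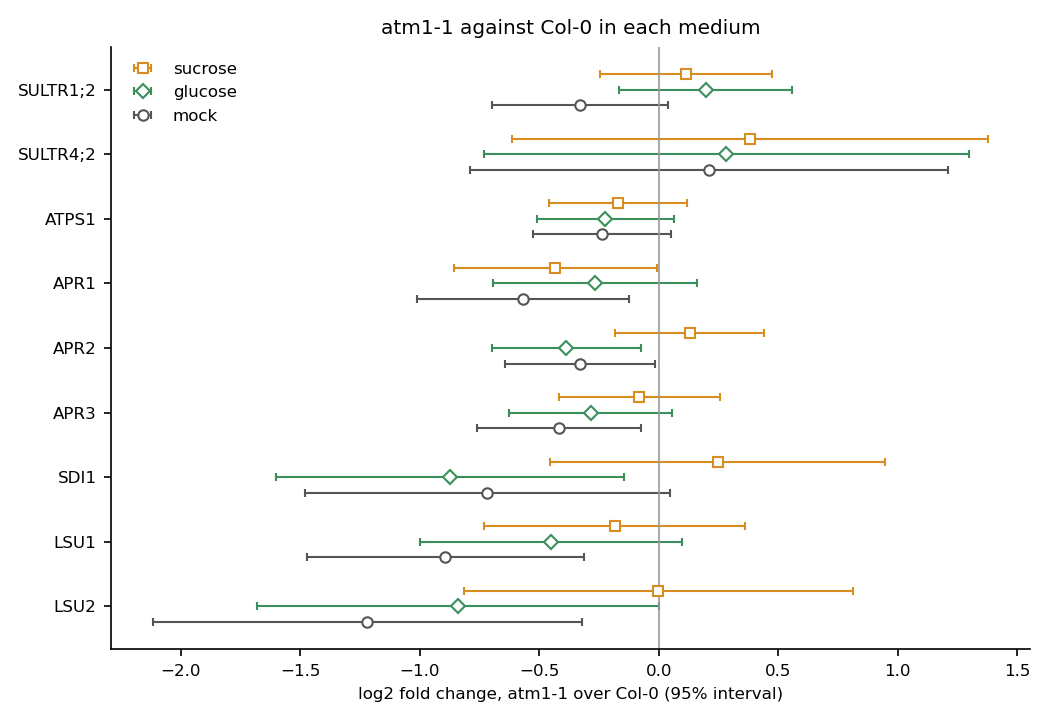
Log2 fold change of atm1-1 over Col-0 (x axis) for the 9 tested genes (y axis) with sucrose (squares), glucose (diamonds) and mock (circles). Bars are 95% intervals from edgeR, and open symbols mark that none had an adjusted p of at most 0.1. In mock 8 of the 9 estimates lie below 0, down to -1.22 for LSU2.

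Whether the sugar response differed between the genotypes was tested as an interaction. For sucrose, 0 of the 9 genes were called (background 0%), and DESeq2 called 0, while 2 of the 9 and 558 of all tested genes passed an unadjusted p of 0.05. All 9 interaction estimates for sucrose were positive, with a median of 0.44, so the response was nominally larger in atm1-1. Of all tested genes, 48.7% were positive, with a median of -0.01. The interaction uses the same atm1-1 mock libraries as the mock comparison of the genotypes and the atm1-1 sugar comparisons, so these results are not independent. The interval for LSU2 ran from 0.01 to 2.43, that for APR2 from 0.02 to 0.90, and that for SULTR1;2 from -0.07 to 0.96 on the log2 scale. For glucose, 0 of the 9 were called (background 0%), DESeq2 called 0, and 1 of the 9, SULTR1;2, passed an unadjusted p of 0.05 (estimate 0.53 ± 0.25, SE), as did 750 of all tested genes. Of the 9 interaction estimates for glucose, 7 were positive and 2 negative, with a median of 0.13, where 50.4% of all tested genes were positive. The lower number of calls in Col-0 is therefore not shown to be a difference between the genotypes. Sucrose and glucose were also set against each other, averaged over the genotypes, and 0 of the 9 were called (background 0.0305%), DESeq2 called 0, and 1 of the 9 (SULTR1;2) passed an unadjusted p of 0.05, as did 1748 of the 19679 tested genes.

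The mean of the 9 genes, each scaled to mean 0 and SD 1 over the 18 libraries, summarises these values as a description. It was -1.34, -1.15 and -1.42 in atm1-1 mock libraries, the lowest of the 18, and -0.51, -0.02 and -0.22 in Col-0 mock libraries. With sucrose it was 0.49, 0.14 and 0.32 in atm1-1 libraries and 0.46, 0.16 and 0.40 in Col-0 libraries. With glucose it was 0.58, -0.47 and 0.12 in atm1-1 libraries and 1.30, 0.36 and 0.80 in Col-0 libraries. The sucrose groups covered nearly the same range in the 2 genotypes, and the low atm1-1 glucose value belonged to replicate 2, which stood apart. Between genes, the log2 CPM of LSU1 and LSU2 had a Pearson r of 0.87 over the 18 libraries and 0.76 after the group means were taken out. APR1 and LSU1 had 0.66 over the 18 libraries and -0.45 after the group means were taken out, so their shared pattern lay between groups. These libraries share depth and group, and no test was made.

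Neighbouring and overlapping genes limit some of these counts. APR1, APR2 and APR3 each overlap an annotated gene on the other strand, and SULTR4;2 overlaps genes on both strands, while the use of strand in counting is not given in the sources used here. The tested partners AT4G04614 (with APR1), APG8A (with APR3) and AT3G12510 (with SULTR4;2) had log2 fold changes of 0.12, 0.15 and -0.04 for sucrose averaged over the genotypes, and none was called. The partners of APR2 had at most 6 counts in a library. In the last 500 bases of each of the 10 genes, every stretch of 50 bases, the read length, occurred once in the genome, so reads of LSU1 and LSU2 or of the APR genes were not interchangeable there.

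The rest of the pathway was followed through lists chosen by role, also with earlier results of these data known. Among the other sulfur-deficiency genes, 3 of 7 were called higher with sucrose averaged over the genotypes (LSU3, LSU4 and SDI2), 2 with glucose (LSU3 and SDI2), and 1, BGLU30, was called lower with both. Of all tested genes, 6.34% were called higher with sucrose and 3.23% with glucose, and 6.72% were called lower with sucrose and 1.63% with glucose. LSU3, which lies 1760 bases beyond LSU1 on the same strand, had 1.98, 0.773 and 1.91 CPM in atm1-1 sucrose libraries and 3.07, 2.59 and 2.45 CPM in Col-0 sucrose libraries, against 0.922, 0.630 and 0.245 CPM in atm1-1 mock and 0.223, 1.02 and 0.923 CPM in Col-0 mock. Its averaged log2 fold change was 1.61 ± 0.39 for sucrose (SE, edgeR adjusted p = 0.00911) and 1.71 ± 0.39 for glucose (adjusted p = 0.0118). LSU4, named after its values were seen, gave 1.28 ± 0.48 for sucrose (adjusted p = 0.0973). SDI2, the homologue of SDI1, gave 0.35 ± 0.11 for sucrose (adjusted p = 0.0523) and 0.44 ± 0.11 for glucose (adjusted p = 0.029). GGCT2;1, which encodes an enzyme of glutathione breakdown, was called with sucrose in atm1-1 (1.79 ± 0.57, edgeR adjusted p = 0.0918). With 1 library left out, LSU3 kept both averaged calls, while the averaged sucrose call was lost without 5 of the 12 libraries for SDI2 (adjusted p up to 0.128, without Col-0 sucrose replicate 3) and without 8 of the 12 for LSU4 (up to 0.234, without Col-0 mock replicate 1). The call of GGCT2;1 was lost without 5 of 6 libraries (adjusted p up to 0.30, without atm1-1 sucrose replicate 2).

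BGLU30 moved the other way. It encodes a beta-glucosidase also known as a dark-inducible gene, and had 13.4, 12.1 and 9.19 CPM in atm1-1 sucrose libraries and 10.7, 5.89 and 11.5 CPM in atm1-1 glucose libraries, against 22.6, 27.0 and 22.8 CPM in atm1-1 mock libraries. In Col-0 it had 7.98, 16.5 and 11.8 CPM with sucrose and 10.6, 16.5 and 9.09 CPM with glucose, against 29.2, 29.6 and 31.4 CPM in mock. All sugar libraries lay below all mock libraries of their genotype. Averaged over the genotypes BGLU30 changed by -1.19 ± 0.18 with sucrose (SE, edgeR adjusted p = 8.45e-05) and by -1.34 ± 0.18 with glucose (adjusted p = 2.88e-05).

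In the APS kinase and sulfotransferase branch, 1 of 8 genes was called higher with sucrose and 3 with glucose, averaged over the genotypes, beside the 6.34% and 3.23% of all tested genes. APK2, an APS kinase that feeds glucosinolate sulfation, had 24.2, 22.6 and 22.0 CPM in atm1-1 sucrose libraries and 27.1, 23.6 and 25.5 CPM in atm1-1 glucose libraries, against 10.7, 8.43 and 11.1 CPM in atm1-1 mock libraries. In Col-0 it had 27.0, 23.0 and 30.1 CPM with sucrose and 33.8, 26.3 and 23.5 CPM with glucose, against 19.3, 17.3 and 16.8 CPM in mock. The atm1-1 groups were apart by more than their spread, with a log2 fold change of 1.19 ± 0.18 for sucrose (SE, edgeR adjusted p = 0.000185) and 1.33 ± 0.18 for glucose (adjusted p = 4.96e-05). APK2 was also the only gene of all these lists called between the genotypes. It was lower in atm1-1 mock than in Col-0 mock, with -0.82 ± 0.18 and an adjusted p of 0.08 (-0.39 ± 0.10 averaged over the media, adjusted p = 0.0798). The mock call was lost without any single library of either mock group (adjusted p 0.172 to 0.396), and the averaged call without 13 of the 18 libraries (up to 0.215, without Col-0 glucose replicate 1). SOT16 and SOT17, sulfotransferases of glucosinolate synthesis, gave 0.37 ± 0.10 (adjusted p = 0.0472) and 0.69 ± 0.18 (adjusted p = 0.0305) for glucose averaged over the genotypes. The call of SOT16 was lost without 3 of the 12 libraries (adjusted p up to 0.12, without atm1-1 mock replicate 2) and that of SOT17 without 2 (up to 0.106, without Col-0 glucose replicate 1).

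The remaining lists held at most 1 called gene each. For sucrose averaged over the genotypes, 6.34% of all tested genes were called higher. Of the 8 tested other sulfate transporters, 1 was called, SULTR3;5, which works in root-to-shoot transport, with 2.46, 1.03 and 1.18 CPM in atm1-1 sucrose libraries against 0.288, 0 and 0 CPM in atm1-1 mock, and 1.84, 1.29 and 1.13 CPM in Col-0 sucrose against 0.149, 0.392 and 0.839 CPM in Col-0 mock (edgeR adjusted p = 0.00599, averaged over the genotypes). Of the 4 other assimilation enzymes, ATPS2, ATPS3, ATPS4 and the sulfite reductase SIR, none was called in any sugar comparison. For sucrose averaged over the genotypes, 0 of these 4 passed an unadjusted p of 0.05 and their median was -0.08. Of the 10 tested genes of cysteine and glutathione synthesis, GSH1, the first enzyme of glutathione synthesis, was the 1 called, with 0.50 ± 0.15 for sucrose (adjusted p = 0.0348), lost without 3 of the 12 libraries (up to 0.131, without Col-0 sucrose replicate 3). Of 7 tested regulators, MYB34, an activator of indole glucosinolate genes, was the 1 called, with 1.11 ± 0.27 for sucrose (adjusted p = 0.0105).

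**Figure D4:**
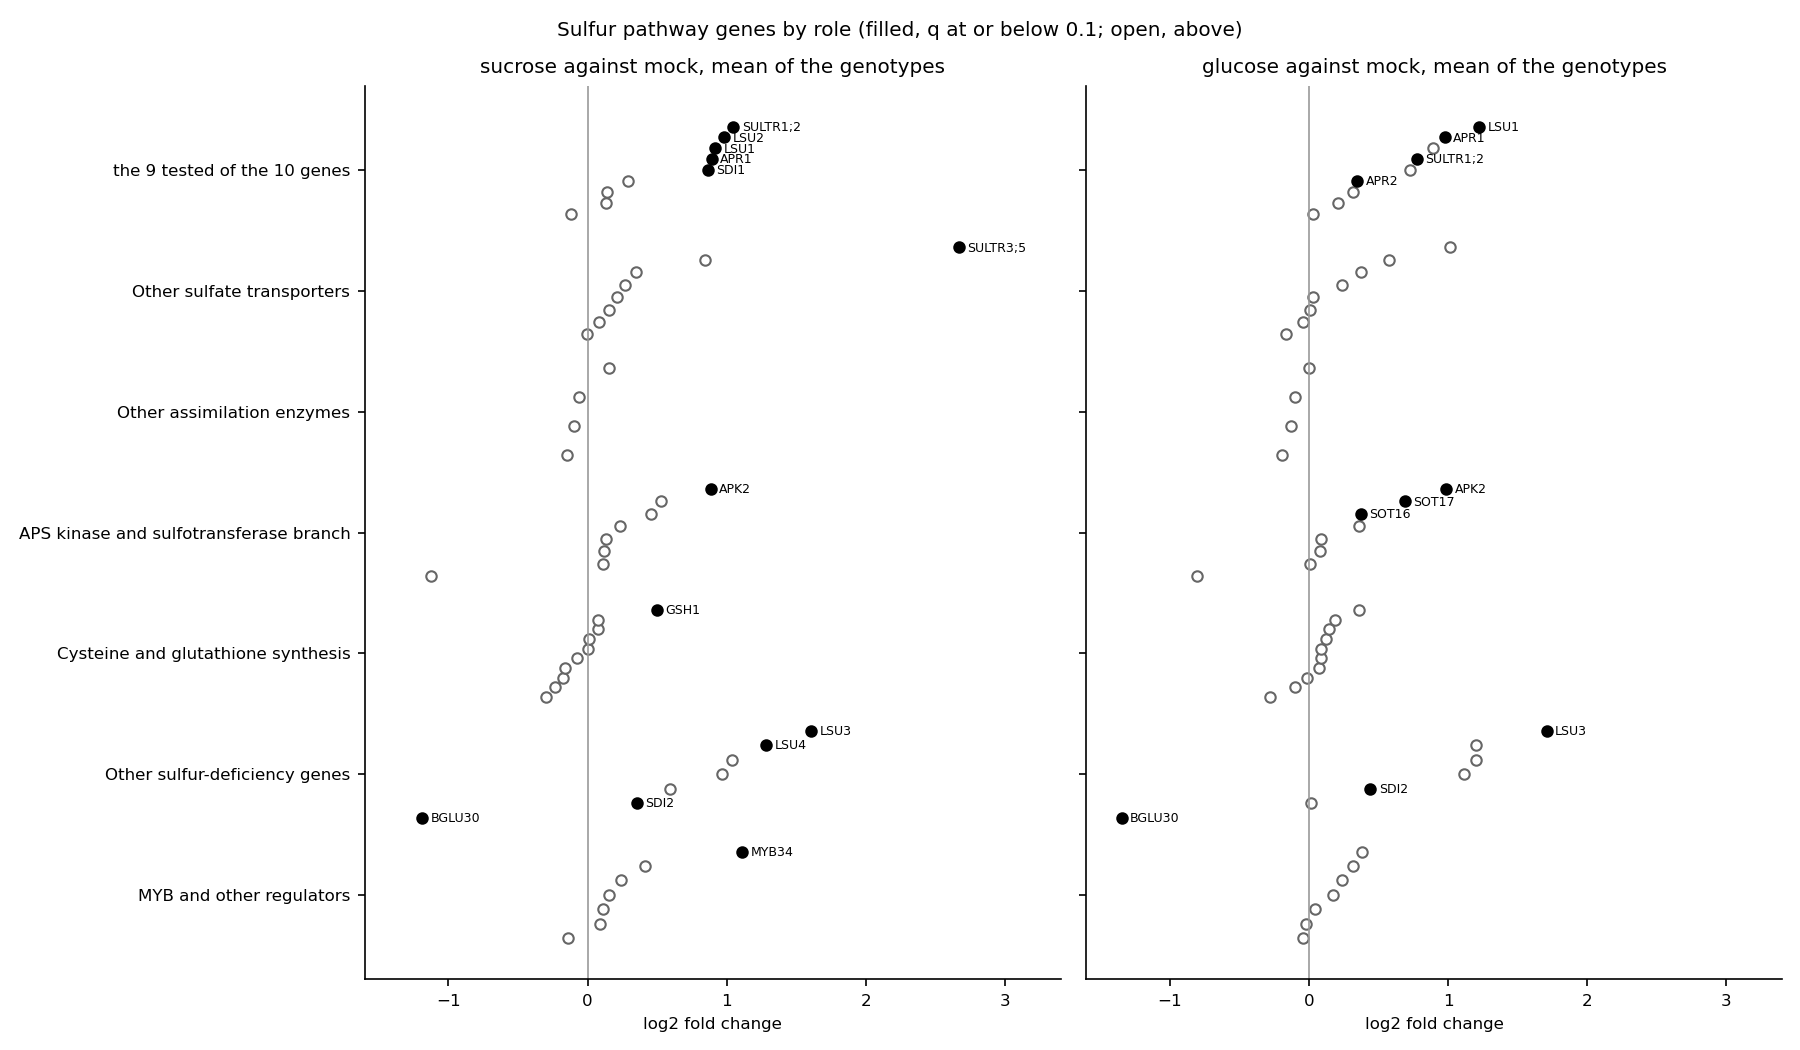
Log2 fold change against mock, averaged over the genotypes (x axis), of tested genes in 7 groups by role (y axis), with sucrose in the left panel and glucose in the right. Each point is a gene, filled and named where the edgeR adjusted p was at most 0.1, and height within a row only spreads the points. In the row of the other 4 assimilation enzymes no point is filled, and BGLU30 is the 1 filled point below 0.

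Across all tested genes, those whose log2 CPM followed the scaled mean of the 9 most closely over the 18 libraries were AT5G38020 (Pearson r = 0.93), CYP79B2 (0.92), GT72B1 (0.92), AT1G65690 (0.91) and TLL1 (0.91). Of the genes taken singly, the closest to LSU2 was LSU1 (0.87), to LSU1 MLP34 (0.92), to APR1 VSP1 (0.94), to APR3 GGP1 (0.88), to ATPS1 UMAMIT14 (0.85), to SDI1 TLL1 (0.82), to SULTR4;2 AT4G05170 (0.82) and to APR2 AtCDC48B (0.79). The highest r is chosen from all tested genes and the libraries share groups and depth, so these values describe likeness only.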

How the data were processed

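Per the labels, 3′ QuantSeq libraries of whole seedlings were read as 50-base single-end reads. The submitters' processing notes name STAR, HTSeq, edgeR and the TAIR10 build, with no versions given in the sources used here. The authors deposited raw counts per gene, which were the input here, and a second table of scaled values, which was not used here. No molecular identifiers are described. Columns were matched to samples by their names, with 3 libraries in each of 6 groups. The 10 genes and the further lists were chosen with earlier results of these data known.

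Genes were filtered with filterByExpr over the 6 groups (19679 kept), scaled by TMM and fitted in 1 model of the 6 group means by edgeR 4.0.16 (glmQLFit, glmQLFTest) in R 4.3.3. Adjusted p-values are Benjamini-Hochberg over all tested genes of a comparison, called at 0.1, the threshold of the study, whose own test was not used here. There were 13 comparisons. CPM values use TMM-scaled library totals. All 10 genes are named, and from each further list up to 4 called genes by lowest adjusted p, with LSU4 added after its values were seen. The script was tested on simulated counts. Upstream sequences and gene positions are from RefSeq TAIR10.1 (Python 3), and 32547 of the 32832 identifiers matched it. Likeness used log2 CPM with a prior count of 2.

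Alternatives were other scalings, other filters on low counts (none, or at least 10 counts in every library), DESeq2 1.42.0, a threshold of 0.05, only the groups compared, the replicate number as a block, and each library left out. Leaving out both atm1-1 glucose libraries that stood apart was chosen after seeing the data and left only replicate 3 of that group. It is counted in the totals of alternatives. The gene closest to SULTR1;2 in pattern is not reported here.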

Additional observations from a re-analysis of the deposited data

How the results depend on the processing

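Over 325 alternative results of the called genes, 298 kept their direction and their side of the threshold, 27 lost the call and 0 reversed. The number of the 9 genes called for glucose in Col-0 was 0 and became 1 with library size scaling, 2 without the filter on low counts, 2 with DESeq2 and 2 with only the groups compared. For sucrose in Col-0 it was 2, became 1 at a threshold of 0.05 and ranged from 0 to 2 with 1 library left out. For sucrose in atm1-1 it was 5 and ranged from 3 to 5 with 1 library left out. For atm1-1 against Col-0 in mock it was 0 and became 1 without the filter and 1 with only the groups compared. Averaged over the media it was 0 and became 1 with library size scaling, 3 without the filter and 1 with DESeq2, and ranged from 0 to 2 with 1 library left out. The share of all genes called under each of these settings is not given here, so these counts do not show a change particular to the 9 genes. The same holds for the DESeq2 counts in the Results. The causes were not tested.

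Samples with the same replicate number shared no deviation (median r = -0.01 over 45 pairs, 3 of them over 0.1), so the numbers do not pair the libraries. With a replicate block, 3 of the 9 genes were called for glucose averaged over the genotypes, against 4 without it, and the other 12 counts did not move.

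With library size scaling the median log2 fold change of all genes for sucrose was 0.14 in atm1-1 and 0.15 in Col-0. With TMM it was -0.004 and 0.01. Library size scaling turned no call round. Depth limits SULTR1;1, SULTR4;2, SDI1 and LSU2 most. With 3 libraries a group, a difference of moderate size can miss the threshold.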
